A study of Danio rerio with 23 samples.

Results

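The 61 genes described here carry symbols of conjugating enzymes of phase II metabolism and were measured in zebrafish liver. Whether each encodes an active enzyme was not examined. They were chosen by symbol in the probe annotation of the array and fall into 3 families, 23 UDP-glucuronosyltransferases (UGT), 21 glutathione S-transferases (GST, with the membrane-bound mgst genes and without gstz1) and 17 sulfotransferases (SULT). They are 61 of the 20908 genes that had at least 1 probe set annotated to them alone, and each gene was represented by the brightest of its probe sets over all 23 arrays. The values are log2 signals, so a difference of 1 is a doubling, and the signal of one probe set was not set against that of another.

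Phase II enzymes join a water-soluble group to steroids, bilirubin, drugs or reactive compounds, so that the product can leave the cell and be excreted in bile or urine. UGTs use UDP-glucuronic acid and sit in the membrane of the endoplasmic reticulum, GSTs join glutathione to electrophiles, and SULTs transfer sulfonate from the donor PAPS. The liver is a main site of all of these reactions. Zebrafish carry several gene copies for many single mammalian genes, and the UGT5 genes form a family described in fish.

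The study asked what Oligo-Fucoidan (OF), a low molecular weight fucoidan from brown seaweed, changes in irradiated livers of wild-type (WT) fish and of fish prone to liver cancer. The first batch held 4 arrays of HBx,src fish given OF and 40 Gy, 3 of HBx,src fish given 40 Gy, 2 of WT fish given OF and 40 Gy and 2 of WT fish given 40 Gy. The second batch held 5 arrays of HBx,src,p53 fish given OF and 10 Gy, 3 of HBx,src,p53 fish given 10 Gy, 2 of WT fish given OF and 10 Gy and 2 of WT fish given 10 Gy. Each fish was 6 months old, every group was irradiated, and those without OF are labelled as mock-treated. OF was given by oral gavage at 300 mg/kg before irradiation, and the protocol describes further gavage after it. The HBx,src fish express the X antigen of hepatitis B virus and the src oncogene under the liver promoter of fabp10a and carry a heart-driven EGFP marker, and the second line is also p53-/+ (written p53- in the labels). The protocol describes the transgenic fish as female and overfed to obesity, and the WT fish (AB strain) as fed a normal diet, with no sex given. Genotype, diet and any difference in sex therefore cannot be told apart in a transgenic minus WT difference. The sources used here do not say whether the arrays came from separate fish, so p-values measure the spread between arrays.

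On all arrays, 18 of 19 measured hepatocyte markers lay above the array median, and the mean of that list was 10.8 to 12.0. Array medians were 2.02 to 2.21 at 40 Gy and 2.46 to 2.58 at 10 Gy, so groups were compared within a batch. The arrays also differed in the female oestrogen response of the liver. On the transgenic arrays the log2 signal of vtg2, which encodes a yolk protein, was 13.5 to 13.9, except on replicates 1 and 4 of HBx,src,p53 OF + 10 Gy, where it was 3.69 and 6.51. In WT fish vtg2 was at 6.36 and 4.64 after OF + 40 Gy and at 2.42 and 2.81 after 40 Gy. It was at 3.18 and 3.96 after OF + 10 Gy and at 13.7 and 13.9 after 10 Gy in WT fish. At 40 Gy vtg2 thus separated all HBx,src from all WT arrays, and cannot be told apart from genotype there. The mean of 22 ovary and oocyte markers was 6.45 and 6.48 on both WT 10 Gy arrays and 2.03 to 3.70 on the other 21. The mean of 11 erythrocyte markers was 6.06 and 6.19 in WT OF + 10 Gy against 4.04 and 4.44 in WT 10 Gy livers. In HBx,src,p53 OF + 10 Gy it was 5.63 and 5.29 on replicates 1 and 4 and 4.29 to 4.54 on the others. The mean of 14 exocrine pancreas markers was lower with OF in WT fish. It was 3.48 and 4.20 in WT OF + 40 Gy against 4.70 and 6.09 in WT 40 Gy, and 5.56 and 4.42 in WT OF + 10 Gy against 7.13 and 6.91 in WT 10 Gy livers. In bulk liver, fewer cells of a type and less RNA per cell cannot be told apart.

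All 61 genes were tested, in one limma fit of 8 group means with Benjamini-Hochberg adjustment over all 75212 probe sets, and a gene is said to have risen or fallen where its adjusted p was under 0.05. After OF, 1 of 61 rose and 1 fell in HBx,src fish at 40 Gy, where 2.11% of all genes rose and 0.225% fell. In WT fish at 40 Gy, 0 rose and 1 fell, against 4.07% and 0.751% of all genes. At an unadjusted p under 0.05, 4 of the 61 were higher and 2 lower there, where 22.9% of all genes passed in either direction. In HBx,src,p53 fish at 10 Gy, 3 rose and 1 fell, against 2.51% and 3.29%. In WT fish at 10 Gy, 2 rose and 1 fell, against 2.63% and 6.56%. Between genotypes, 2 of the 61 were higher and 2 lower in HBx,src than in WT fish after 40 Gy, where 1.29% of all genes were higher and 1.4% lower. After OF + 40 Gy, 1 was higher and 0 lower, against 0.287% and 1.11%. At an unadjusted p under 0.05, 5 were higher and 5 lower there, where 13.7% of all genes passed in either direction. After 10 Gy, 2 were higher and 1 lower in HBx,src,p53 than in WT fish, against 5.35% and 8.44%. After OF + 10 Gy limma called 0 of 61, against 0.383% higher and 0.674% lower. At an unadjusted p under 0.05, 9 passed there, where 10.8% of all genes did. The shares called are small in both the 61 genes and the background, and no family stood out by its number of calls.

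**Figure D1:**
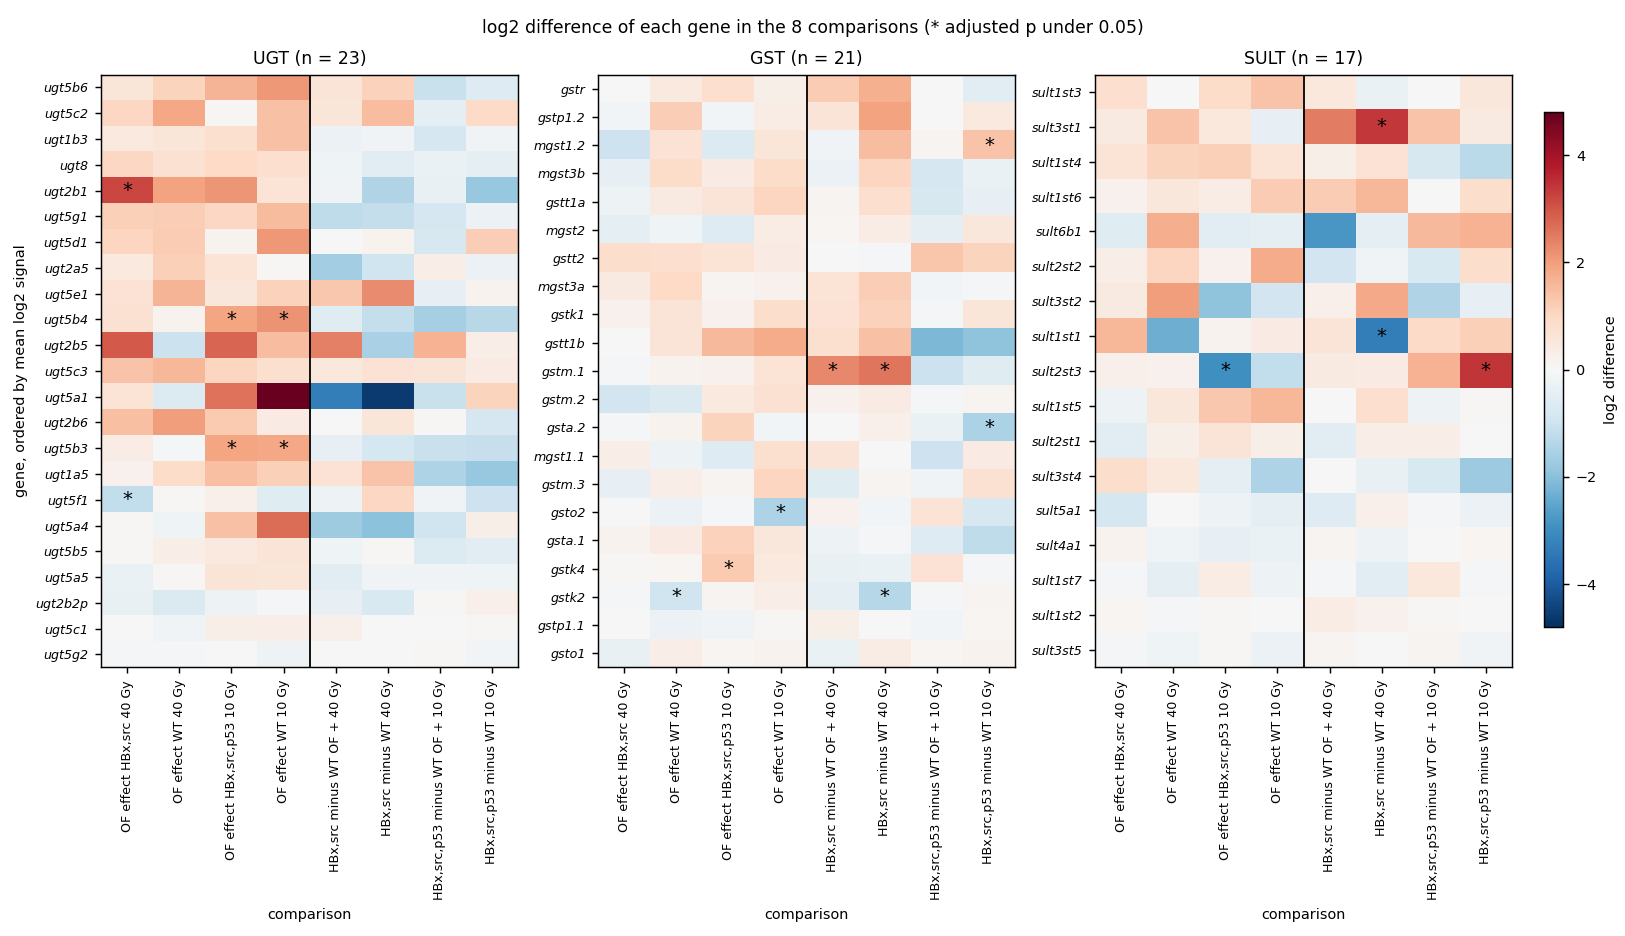
log2 difference of each of the 61 genes (rows, ordered by mean signal within a family) in the 4 OF comparisons (left of the line in each panel) and the 4 transgenic minus WT comparisons (right of it), with red for higher and blue for lower in the first-named group and an asterisk for an adjusted p under 0.05. In the OF comparisons the UGT panel is mostly red, with 16 to 21 of 23 genes higher, while the GST and SULT panels are mixed.

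Most UGT genes had higher values after OF, least firmly in WT fish at 40 Gy. Of the 23 genes, 19 were higher in HBx,src OF + 40 Gy than in HBx,src 40 Gy livers, 16 in the WT comparison at 40 Gy, 21 in the HBx,src,p53 comparison and 20 in the WT comparison at 10 Gy. The median log2 differences of the family were 0.58, 0.59, 0.96 and 1.1 in that order, where the medians of all genes were 0.02, 0.07, 0.001 and 0.03. In these 4 comparisons, which share no array, 14 of the 23 genes (60.9%) were higher each time, against 15.4% of all genes. Lower each time were 2 of the 23 (8.7%), against 11.4% of all genes. All genes here include those of every signal level and were not matched to the UGT genes by signal. The WT result at 40 Gy rested on WT OF + 40 Gy replicate 2. Without it 12 of 23 genes were higher, the median was 0.01 against 0.03 for all genes, and 10 genes (43.5%) were higher in all 4 comparisons, against 13.6% of all genes. The mean signal of the 23 genes was 4.57 to 4.95 on the HBx,src OF + 40 Gy arrays against 3.94 to 4.24 on the HBx,src 40 Gy arrays. It was 4.66 and 5.23 in WT OF + 40 Gy against 4.10 and 4.61 in WT 40 Gy livers. It was 5.40 to 6.30 in HBx,src,p53 OF + 10 Gy against 4.70 to 5.07 in HBx,src,p53 10 Gy livers. The highest 2 of these OF arrays, at 6.28 and 6.30, were the 2 of low vtg2. It was 6.28 and 6.30 in WT OF + 10 Gy against 5.06 and 5.18 in WT 10 Gy livers. In each pair the lowest OF array lay above the highest array without OF. Without the 2 arrays of low vtg2 the HBx,src,p53 median was 0.52, with 19 of 23 genes higher. The WT groups at 10 Gy also differed in vtg2 and ovary markers, as given above, and the part of either in the family's values was not tested. No test was made over the family, and few of its genes passed the threshold on their own.

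Hepatocyte and biliary markers moved the same way as the UGT genes by their medians. The mean of the 19 hepatocyte markers was 11.20 to 11.40 in HBx,src OF + 40 Gy against 10.81 to 11.14 in HBx,src 40 Gy, and 11.50 to 11.73 in HBx,src,p53 OF + 10 Gy against 11.11 to 11.20 in HBx,src,p53 10 Gy livers. In WT fish it was 11.17 and 11.41 in OF + 40 Gy against 10.97 and 11.24 in 40 Gy, which overlap, and 11.98 and 12.01 in OF + 10 Gy against 11.36 and 11.52 in 10 Gy livers. The median differences of the hepatocyte markers were 0.22, 0.57, 0.05 and 0.47, smaller than those of the UGT genes. Those of 9 biliary markers were 0.42, 0.52, 1.24 and 0.71 in that order, and the UGT median in WT fish at 40 Gy was 0.59. Those of 13 neutrophil and macrophage markers were 0.44, -0.23, 1.05 and 0.76. The part of any of these lists in the UGT result was not tested.

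**Figure D2:**
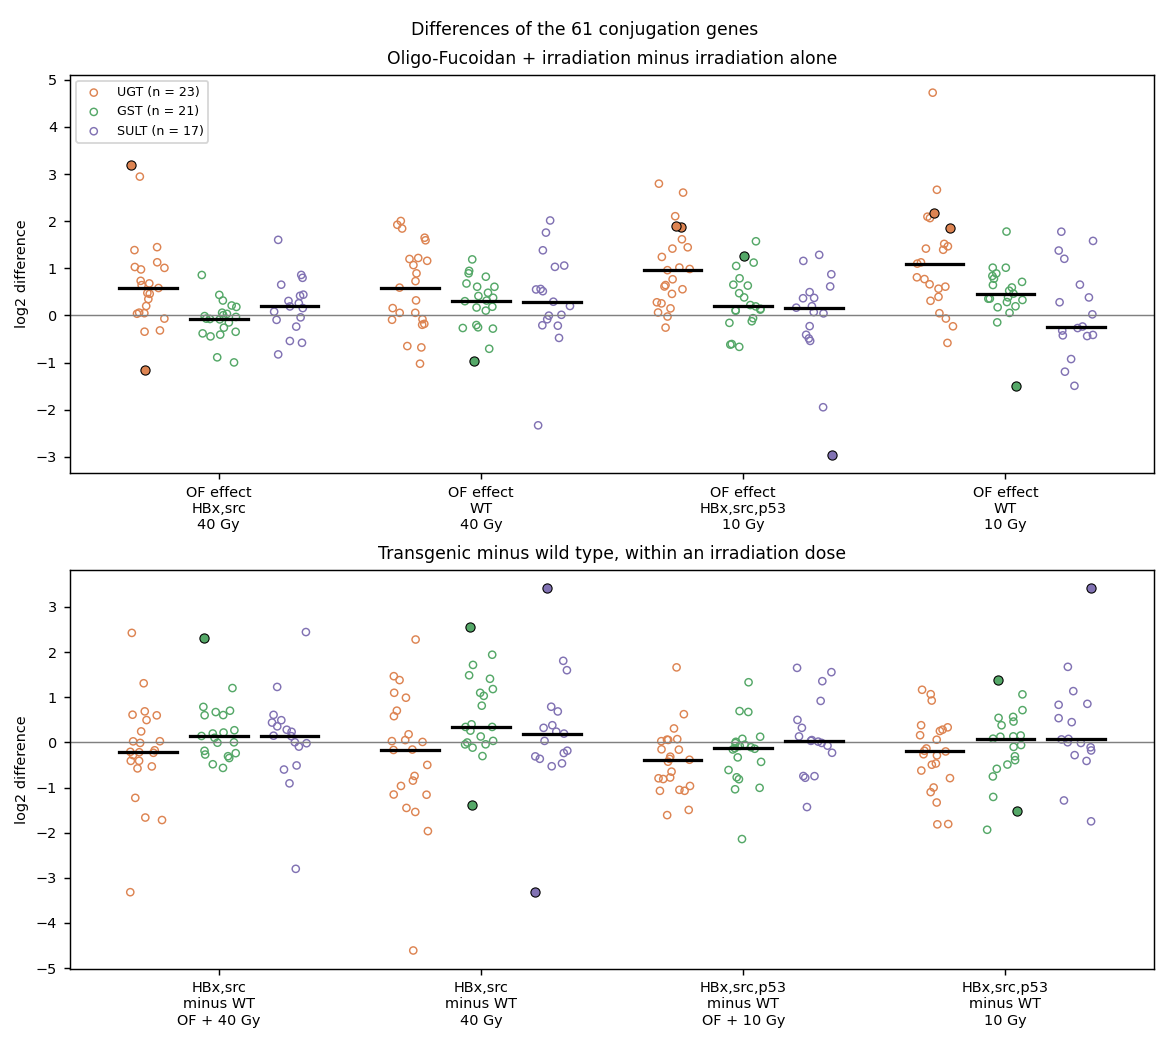
log2 differences of the UGT, GST and SULT genes (points, filled where the adjusted p was under 0.05) with the family median (bar), for OF + irradiation minus irradiation alone (top) and transgenic minus WT (bottom). The UGT medians lie between 0.58 and 1.1 in the 4 OF comparisons and between -0.38 and -0.16 in the transgenic comparisons.

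The 23 UGT genes comprise 15 UGT5, 5 UGT2, 2 UGT1 and ugt8, which in mammals encodes a galactosyltransferase of myelin lipid synthesis. Their means over the 23 arrays ran from 1.74 (ugt5g2) to 8.18 (ugt5b6), 15 of the 23 lay above the array median on every array, and ugt5g2 lay below it on every array. RefSeq places ugt5b6, ugt5b4 and ugt5b3 next to each other in the genome, and they are the UGT5B genes described first.

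ugt5b3 had signals of 5.91, 4.69, 4.86, 6.33 and 4.91 in HBx,src,p53 OF + 10 Gy against 3.92, 3.5 and 2.96 in HBx,src,p53 10 Gy livers. In WT fish it had 6.71 and 6.11 after OF + 10 Gy against 4.68 and 4.44 after 10 Gy. The groups did not overlap in either genotype. The differences were 1.88 (SE 0.35, adjusted p = 0.0066 by limma) in HBx,src,p53 and 1.85 (SE 0.48, adjusted p = 0.030) in WT fish, and they differed by 0.03 between the genotypes. At 40 Gy the groups overlapped, with 3.74, 4.76, 4.00 and 4.20 in HBx,src OF + 40 Gy against 3.94, 3.71 and 3.83 in HBx,src 40 Gy, and 4.11 and 5.05 in WT OF + 40 Gy against 4.70 and 4.64 in WT 40 Gy livers.

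ugt5b4 showed the same order at 10 Gy. It had 7.56, 5.96, 6.35, 7.56 and 6.65 in HBx,src,p53 OF + 10 Gy against 5.07, 5.03 and 4.68 in HBx,src,p53 10 Gy livers, a difference of 1.89 (SE 0.38, limma adjusted p = 0.010). In WT fish it had 8.99 and 7.86 after OF + 10 Gy against 6.34 and 6.18 after 10 Gy, a difference of 2.17 (SE 0.52, limma adjusted p = 0.017). Of its 8 probe sets, which hold 4 different sets of values, the brightest represents the gene, and the next brightest had 1.85 and 2.51 in the same comparisons. At 40 Gy the differences were 0.74 in HBx,src and 0.16 in WT fish and did not pass the test.

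ugt5b6, the third of these neighbours and the brightest UGT by mean signal, did not pass the test in any comparison. It had 9.51, 8.34, 8.20, 9.54 and 8.82 in HBx,src,p53 OF + 10 Gy against 7.89, 7.68 and 6.24 in HBx,src,p53 10 Gy livers, and 10.00 and 9.91 in WT OF + 10 Gy against 8.03 and 7.75 in WT 10 Gy livers. The groups did not overlap in either pair, and the differences were 1.62 and 2.06. A probe set shared by ugt5b1, ugt5b2 and ugt5b3 rose as well, by 1.75 in HBx,src,p53 and 2.11 in WT fish at 10 Gy, as did one shared by these genes and ugt5b4, by 1.92 and 2.94. The gene copies cannot be told apart on such probe sets.

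The values of ugt5b3, ugt5b4 and ugt5b6 were higher where vtg2 was low on the HBx,src,p53 OF + 10 Gy arrays. The same held for ugt5c2, ugt1b3, ugt5a1, gstr, gstm.1 and sult1st4, while gsto2, gstp1.2, sult2st3 and sult3st1 were lower there. The values of ugt5b5 overlapped, with 3.53 and 3.04 where vtg2 was low and 2.79 to 3.87 where it was high. The 2 HBx,src,p53 OF + 10 Gy arrays of low vtg2 had 5.91 and 6.33 for ugt5b3 against 4.69 to 4.91 on the 3 with high vtg2, and both stayed above the HBx,src,p53 10 Gy arrays. Without those 2 arrays the difference of ugt5b3 was 1.36 (adjusted p = 0.030) and that of ugt5b4 was 1.39 (adjusted p = 0.064), so the call of ugt5b4 was lost. In WT fish the 10 Gy arrays, alone, carried the ovary signal and the OF + 10 Gy arrays had low vtg2, and the part of either in the UGT5B differences was not tested. Leaving out any 1 of the 8 arrays kept the call of ugt5b3 in HBx,src,p53 fish (1.63 to 2.11). For ugt5b4 in these fish the call was lost without HBx,src,p53 10 Gy replicate 3 (adjusted p = 0.057, the highest of the 8 fits). In WT fish the call of ugt5b3 was lost without any 1 of the 4 arrays (1.55 to 2.15, adjusted p up to 0.23). That of ugt5b4 in WT fish was lost without WT 10 Gy replicate 1 or 2 or WT OF + 10 Gy replicate 1 (1.60 to 2.73 over the 4 fits, adjusted p up to 0.23).

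**Figure D3:**
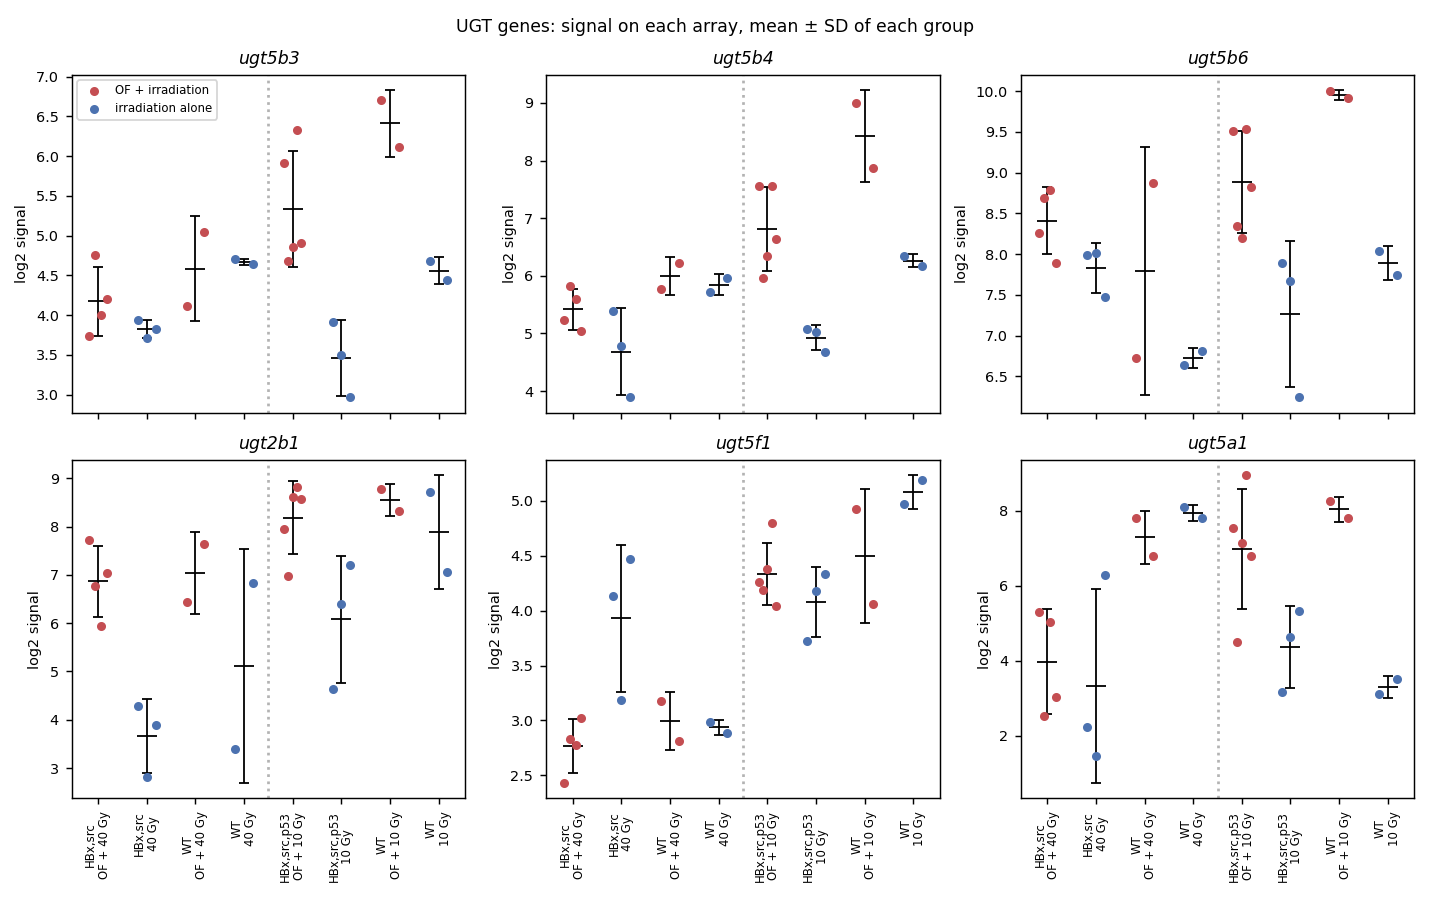
log2 signal of 6 UGT genes on each array (points) with the mean and SD of each group (black), with the 40 Gy batch left of the dotted line and the 10 Gy batch right of it, and OF groups in red. ugt5b3, ugt5b4 and ugt5b6 are higher in both OF groups of the 10 Gy batch, and ugt2b1 is lowest in HBx,src 40 Gy livers (2.81 to 4.29).

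ugt2b1 rose in HBx,src livers with OF. UGT2B enzymes conjugate steroids and many drugs in mammals. It had 7.72, 6.76, 5.94 and 7.04 in HBx,src OF + 40 Gy against 4.29, 2.81 and 3.89 in HBx,src 40 Gy livers, with no overlap and a difference of 3.2 (SE 0.75, limma adjusted p = 0.042). In the other 3 OF comparisons it was higher by 1.92 (WT, 40 Gy), 2.11 (HBx,src,p53) and 0.66 (WT, 10 Gy), none past the threshold. Its value in WT 40 Gy livers was unsteady, at 3.40 and 6.83. The call was lost in 6 of the 7 fits that left out 1 array, all but the one without HBx,src OF + 40 Gy replicate 3 (2.77 to 3.51, adjusted p up to 0.16), and also with quantile normalization and with the mean over its 4 probe sets. Its neighbour ugt2b5 was also higher in both transgenic comparisons, by 2.95 and 2.80, but not past the threshold.

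ugt5f1 fell in the same comparison. It had 2.43, 2.83, 2.78 and 3.02 in HBx,src OF + 40 Gy against 4.13, 3.18 and 4.47 in HBx,src 40 Gy livers, a difference of -1.16 (SE 0.28, limma adjusted p = 0.044). The groups did not overlap, though replicate 2 of HBx,src 40 Gy (3.18) lay close to the highest OF array. In the other OF comparisons the gene differed by 0.06 (WT, 40 Gy), 0.26 (HBx,src,p53) and -0.58 (WT, 10 Gy). Its call held only without HBx,src 40 Gy replicate 2 among the 7 fits that left out 1 array (-1.54 to -0.89, adjusted p up to 0.19), and was lost with centring, a trended prior or array weights.

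The other bright UGT genes did not pass the test. ugt5c2 had 8.15 and 8.52 in WT OF + 10 Gy against 7.48 and 6.35 in WT 10 Gy livers, and 6.70 and 6.61 in WT OF + 40 Gy against 3.51 and 6.11 in WT 40 Gy livers. ugt1b3 had 8.33, 7.45, 7.18, 7.68 and 7.15 in HBx,src,p53 OF + 10 Gy against 6.68, 7.05 and 6.63 in HBx,src,p53 10 Gy livers, and 8.20 and 8.53 in WT OF + 10 Gy against 6.81 and 7.14 in WT 10 Gy livers. Neither pair of ugt1b3 overlapped, and its differences were 0.77 and 1.39. On the HBx,src,p53 OF + 10 Gy arrays of low vtg2, ugt1b3 had 7.68 and 8.33, against 7.15 to 7.45 on those of high vtg2. There ugt5c2 had 8.39 and 8.57 where vtg2 was low, against 7.36 to 7.82 where it was high. The WT groups at 10 Gy differed in vtg2 and ovary markers too, and the part of either in these genes was not tested. Over the 16 UGT genes not named by the rule for named genes, the differences after OF ran from -1.02 (ugt2b5, WT at 40 Gy) to 4.73 (ugt5a1, WT at 10 Gy).

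ugt5a1 covered the widest range of the family, 7.48 on the log2 scale over the 23 arrays, and is described for that reason, chosen after its values were seen. It had 7.52, 4.50, 7.14, 8.94 and 6.79 in HBx,src,p53 OF + 10 Gy against 3.17, 4.63 and 5.32 in HBx,src,p53 10 Gy livers. It had 8.27 and 7.80 in WT OF + 10 Gy against 3.10 and 3.51 in WT 10 Gy livers. In the first batch it had 5.30, 2.52, 5.03 and 3.04 in HBx,src OF + 40 Gy and 2.24, 1.46 and 6.28 in HBx,src 40 Gy livers, against 7.79 and 6.79 in WT OF + 40 Gy and 8.08 and 7.79 in WT 40 Gy livers. The gene lay at 6.79 to 8.94 on the 8 arrays of low vtg2 and at 1.46 to 7.14 on the other 15, over both batches. Low vtg2 cannot be told apart from WT in the first batch, nor from OF in WT fish of the second. A link of ugt5a1 with vtg2 was not tested. None of its comparisons passed the test. Both of its probe sets hold identical values, and those shared by ugt5a2 and ugt5a3 rose by 5.11 in WT fish at 10 Gy.

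Between genotypes no UGT gene passed the threshold in any of the 4 comparisons by limma. At an unadjusted p under 0.05, 7, 4, 4 and 4 genes passed after 40 Gy, OF + 40 Gy, 10 Gy and OF + 10 Gy. Of all genes, 17.0%, 13.7%, 26.6% and 10.8% did in that order. The family medians were -0.16 after 40 Gy, -0.21 after OF + 40 Gy, -0.20 after 10 Gy and -0.38 after OF + 10 Gy, where all genes had medians between -0.003 and 0.02. The first was 0.09 without WT 40 Gy replicate 2 and the second 0.13 without WT OF + 40 Gy replicate 2, so their direction turned. The lowest values were those of ugt5a1 in HBx,src relative to WT fish, -4.61 after 40 Gy and -3.32 after OF + 40 Gy. Without the 2 arrays of low vtg2, ugt5b3 (-1.59, limma adjusted p = 0.016) and ugt5b4 (-2.11, limma adjusted p = 0.0095) were lower in HBx,src,p53 than in WT fish after OF + 10 Gy. The GST gene gsto2 was higher there (0.92, limma adjusted p = 0.038). The transgenic arrays left had high vtg2 (13.8 to 13.9) and both WT arrays low vtg2 (3.18 and 3.96). Genotype and vtg2 therefore cannot be told apart in that fit. That fit was added after the data were seen.

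The GST family did not move one way. Its median difference after OF was -0.07 in HBx,src and 0.32 in WT fish at 40 Gy, and 0.19 in HBx,src,p53 and 0.46 in WT fish at 10 Gy. Of its 21 genes, 8, 15, 15 and 19 were higher in that order, where 51.9%, 54.9%, 50.1% and 52.8% of all genes were. In all 4 comparisons 5 genes (23.8%) were higher, against 15.4% of all genes. Without WT OF + 40 Gy replicate 2 the median in WT fish at 40 Gy turned to -0.33, with 5 of 21 genes higher and 1 higher in all 4. That in HBx,src fish turned to between 0.01 and 0.03 without HBx,src 40 Gy replicate 1 or HBx,src OF + 40 Gy replicate 3 or 4. The mean of its genes was 4.60 to 5.00 in HBx,src OF + 40 Gy against 4.45 to 5.09 in HBx,src 40 Gy livers, and 3.99 and 5.00 in WT OF + 40 Gy against 4.10 and 4.38 in WT 40 Gy livers, both overlapping. It was 5.71 to 6.05 in HBx,src,p53 OF + 10 Gy against 5.52 to 5.63 in HBx,src,p53 10 Gy livers, and 6.12 and 6.15 in WT OF + 10 Gy against 5.60 and 5.74 in WT 10 Gy livers, without overlap. Of the 21 genes, 11 lay above the array median on all arrays and gstp1.1 lay below it on all.

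The cytosolic class mu gene gstm.1 was higher in HBx,src than in WT livers in both treatments. It had 5.60, 4.86, 3.5 and 4.74 in HBx,src OF + 40 Gy against 1.84 and 2.90 in WT OF + 40 Gy livers, a difference of 2.3 (SE 0.54, limma adjusted p = 0.049). It had 4.89, 5.39 and 3.99 in HBx,src 40 Gy against 1.98 and 2.42 in WT 40 Gy livers, a difference of 2.55 (SE 0.57, limma adjusted p = 0.027). The groups did not overlap, and the WT arrays, at 1.84 to 2.90, had array medians of 2.04 to 2.21. In the second batch it was not higher in transgenic fish, with 6.58, 5.50, 4.96, 6.52 and 6.05 in HBx,src,p53 OF + 10 Gy against 7.19 and 6.73 in WT OF + 10 Gy, and 5.62, 5.84 and 5.73 in HBx,src,p53 10 Gy against 6.83 and 5.80 in WT 10 Gy livers. After 40 Gy the call was lost without WT 40 Gy replicate 1 or HBx,src 40 Gy replicate 1 or 2 (2.24 to 2.94 over 5 fits, adjusted p up to 0.12). After OF + 40 Gy it was kept only without HBx,src OF + 40 Gy replicate 3 (1.77 to 2.83 over 6 fits, adjusted p up to 0.40), and centring, quantile normalization within batches, a floor at the array median and a trended prior ended it. vtg2 separates HBx,src from WT arrays in this batch in the same way, and its part was not tested.

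gstk2, a gene of the mitochondrial and peroxisomal class kappa, was highest on the WT 40 Gy arrays. It had 1.59, 1.63, 1.68 and 1.74 in HBx,src OF + 40 Gy, 1.59, 1.80 and 1.79 in HBx,src 40 Gy and 2.28 and 2.01 in WT OF + 40 Gy livers, against 3.2 and 3.03 in WT 40 Gy livers. On the 12 arrays of the second batch it lay between 1.42 and 2.31, below the array medians there. The HBx,src minus WT difference after 40 Gy was -1.39 (SE 0.18, limma adjusted p = 0.00076), or at least 0.97 lower with HBx,src arrays set at their medians. With OF it was lower in WT fish by a difference of -0.97 (SE 0.20, limma adjusted p = 0.015), a call lost without WT 40 Gy replicate 1 or WT OF + 40 Gy replicate 2 (-1.1 to -0.84, adjusted p up to 0.17). The genotype call held without any 1 of the 5 arrays. vtg2 separates these HBx,src and WT arrays as well, and its part was not tested.

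gsto2 and gstk4, both dim, moved at 10 Gy. gsto2, of the class omega enzymes that reduce dehydroascorbate in mammals, had 2.14 and 2.32 in WT OF + 10 Gy against 3.95 and 3.48 in WT 10 Gy livers, a difference of -1.49 (SE 0.28, limma adjusted p = 0.0023), and at least 1.2 lower against the array medians. The call held without any 1 of the 4 arrays. In HBx,src,p53 fish it had 2.36, 3.13, 3.42, 2.70 and 2.89 after OF + 10 Gy against 2.69, 2.93 and 3.26 after 10 Gy, a difference of -0.06. The effect of OF was 1.43 higher in HBx,src,p53 than in WT fish (SE 0.34, limma adjusted p = 0.023), the 1 of 61 genes for which the effects differed at 10 Gy, where 6.8% of all genes did. That call was lost without WT 10 Gy replicate 1, WT OF + 10 Gy replicate 1 or 2 or HBx,src,p53 10 Gy replicate 1 (1.19 to 1.66 over 12 fits, adjusted p up to 0.15). The WT 10 Gy arrays carry ovary markers at 6.45 and 6.48, against 2.31 and 2.32 in WT OF + 10 Gy livers, and the part of that tissue in the gsto2 signal was not tested. On the HBx,src,p53 OF + 10 Gy arrays gsto2 had 2.36 and 2.70 where vtg2 was low and 2.89 to 3.42 where it was high. In WT fish vtg2 was low after OF + 10 Gy (3.18 and 3.96) and high after 10 Gy (13.7 and 13.9). OF and vtg2 therefore cannot be told apart in the WT difference. The part of vtg2 in the difference between the effects was not tested. At 40 Gy the effects of OF differed for 0 of 61 genes by limma, against 0.225% of all genes. At an unadjusted p under 0.05 they differed for 6, where they did for 10.6% of all genes.

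gstk4 had 3.19, 3.10, 3.63, 3.82 and 3.99 in HBx,src,p53 OF + 10 Gy against 2.77, 1.87 and 2.23 in HBx,src,p53 10 Gy livers, with no overlap and a difference of 1.26 (SE 0.26, limma adjusted p = 0.013). In WT fish it had 2.37 and 3.33 after OF + 10 Gy against 2.62 and 2.16 after 10 Gy, which overlap. On the first batch it lay between 1.46 and 2.43. Replicates 2 and 3 of HBx,src,p53 10 Gy lay below their array medians of 2.54 and 2.52, and with such arrays set at their medians the difference was 0.94 (adjusted p = 0.012). The call was lost without HBx,src,p53 10 Gy replicate 2 or 3 (1.05 to 1.50 over 8 fits, adjusted p up to 0.064) and with the mean over its 2 probe sets, of which the dimmer had a difference of -0.23. It held without the 2 arrays of low vtg2 (1.28, adjusted p = 0.046).

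**Figure D4:**
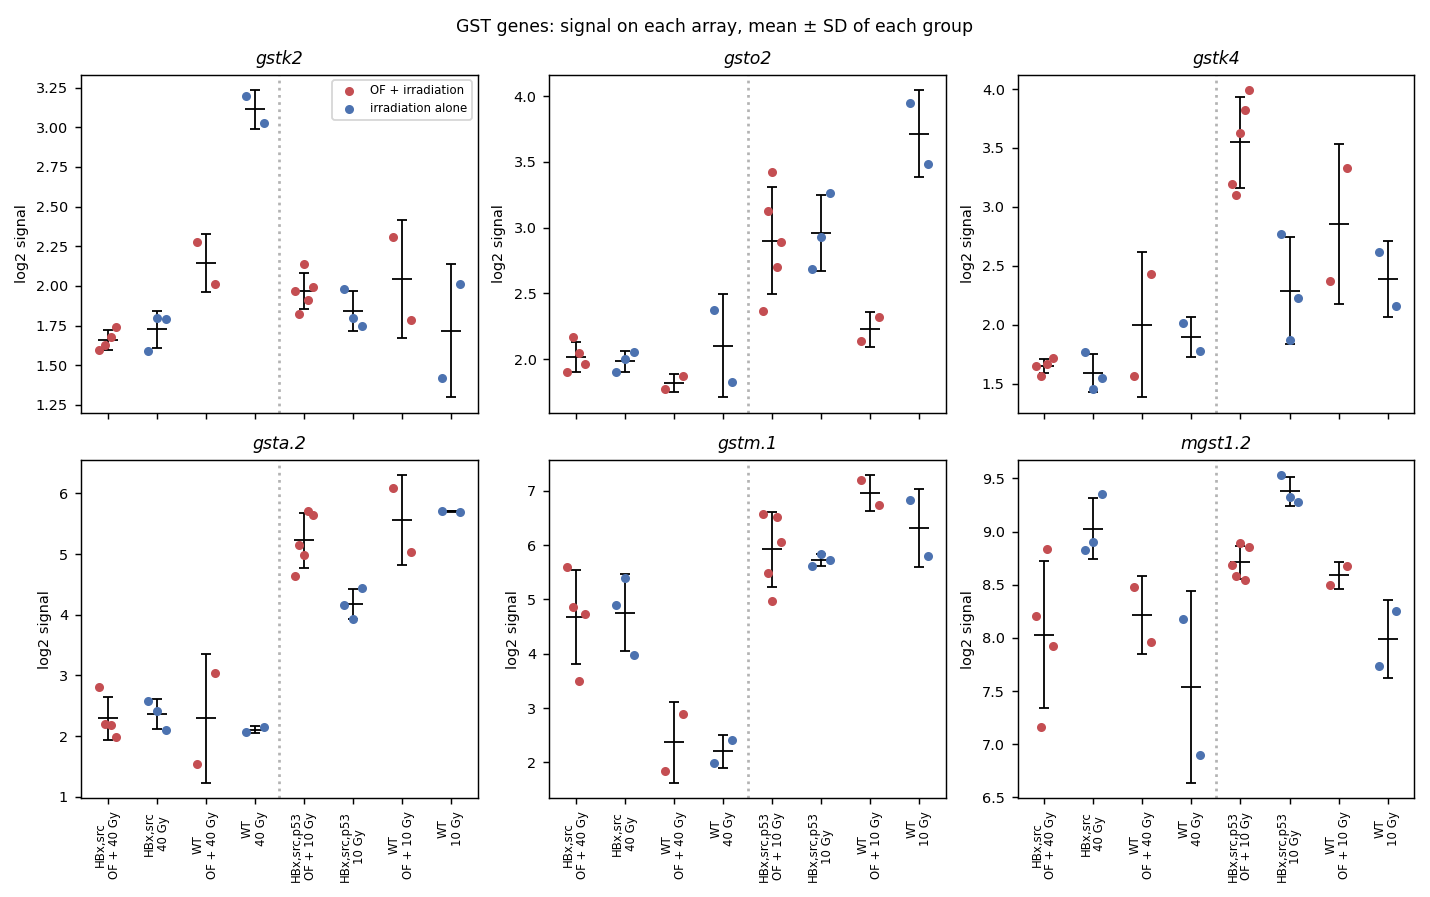
log2 signal of 6 GST genes on each array (points) with the mean and SD of each group (black), with the 40 Gy batch left of the dotted line and OF groups in red. gstk2 is raised on the WT 40 Gy arrays (3.03 and 3.2), gsto2 on the WT 10 Gy arrays (3.48 and 3.95), and gstm.1 is lower in WT than in HBx,src livers of the 40 Gy batch.

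After 10 Gy alone, 2 GST genes differed between genotypes. The membrane-bound mgst1.2 had 9.53, 9.33 and 9.28 in HBx,src,p53 10 Gy against 7.73 and 8.25 in WT 10 Gy livers, a difference of 1.38 (SE 0.38, limma adjusted p = 0.032). gsta.2, a class alpha gene, had 4.16, 3.93 and 4.44 in HBx,src,p53 10 Gy against 5.71 and 5.70 in WT 10 Gy livers, a difference of -1.53 (SE 0.40, limma adjusted p = 0.023). Neither pair overlapped, and the call of mgst1.2 was lost without any 1 of the 5 arrays (1.13 to 1.64, adjusted p up to 0.29), while that of gsta.2 held only without HBx,src,p53 10 Gy replicate 3 (-1.66 to -1.41, adjusted p up to 0.13). Both calls were lost with quantile normalization over all arrays. The WT 10 Gy arrays carry ovary markers at 6.45 and 6.48, and the part of that tissue in these differences was not tested. After OF + 10 Gy the same genes differed by 0.13 (mgst1.2) and -0.33 (gsta.2), neither past the threshold. mgst1.2 was lower after OF in both transgenic lines, by differences of -1.0 in HBx,src and -0.67 in HBx,src,p53, and higher in WT fish, by 0.68 at 40 Gy and 0.59 at 10 Gy, none past the threshold. The difference between these effects was -1.67 at 40 Gy and -1.26 at 10 Gy, at unadjusted p under 0.05 and not past the adjusted threshold.

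The brightest GST genes passed no test. gstr, a fish class (rho), had 10.44, 9.91, 8.83 and 9.58 in HBx,src OF + 40 Gy and 10.38, 9.51 and 9.28 in HBx,src 40 Gy livers, against 7.22 and 9.76 in WT OF + 40 Gy and 7.19 and 8.82 in WT 40 Gy livers. gstp1.2, of the class pi enzymes that detoxify electrophiles, had 9.26, 8.68, 8.06 and 8.64 in HBx,src OF + 40 Gy and 9.69, 9.36 and 7.38 in HBx,src 40 Gy livers, against 7.39 and 8.72 in WT OF + 40 Gy and 6.45 and 7.28 in WT 40 Gy livers. HBx,src minus WT after 40 Gy was 1.72 for gstr and 1.94 for gstp1.2, neither past the threshold. Replicate 1 of both WT groups of this batch was the lowest for both genes within its group. In the second batch gstr lay between 10.40 and 11.66 and gstp1.2 between 9.25 and 9.94 on all arrays.

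In HBx,src minus WT after 40 Gy, 8 of the 21 GST genes had an unadjusted p under 0.05, where 17.0% of all genes did. Of these 8, 7 were higher in HBx,src. The median over all 21 GST genes was 0.34. With OF this median was 0.14, and -0.20 without WT OF + 40 Gy replicate 1. In the second batch it was 0.08 after 10 Gy and -0.13 after OF + 10 Gy. The value after 10 Gy turned to -0.08 without WT 10 Gy replicate 2 and to -0.05 without HBx,src,p53 10 Gy replicate 3, and that after OF + 10 Gy to 0.02 without WT OF + 10 Gy replicate 1. The gene of widest range was gstt1b, which spanned 6.90 on the log2 scale over the 23 arrays with no call.

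The SULT family gave 4 calls in 3 genes, and 3 of these were the largest differences by size among the 19 that passed the test. Its medians after OF were 0.19 in HBx,src and 0.29 in WT fish at 40 Gy, and 0.17 in HBx,src,p53 and -0.23 in WT fish at 10 Gy. The last of these was 0.06 without WT 10 Gy replicate 2. Of the 17 genes, 11, 11, 11 and 8 were higher in that order, where 51.9%, 54.9%, 50.1% and 52.8% of all genes were. In all 4 comparisons 3 genes (17.65%) were higher, against 15.4% of all genes. Of the 17 genes 9 lay above the array median on all arrays, and sult1st2 and sult3st5 lay below it on all.

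sult2st3 was high in HBx,src,p53 livers after 10 Gy alone. SULT2 enzymes sulfonate hydroxysteroids and bile alcohols or acids. It had 4.26, 5.12, 6.11, 3.75 and 6.5 in HBx,src,p53 OF + 10 Gy against 8.24, 8.95 and 7.16 in HBx,src,p53 10 Gy livers, a difference of -2.96 (SE 0.71, limma adjusted p = 0.028) with no overlap. In WT fish it had 4.21 and 2.79 after OF + 10 Gy against 2.75 and 6.63 after 10 Gy. HBx,src,p53 10 Gy livers were higher than WT 10 Gy livers by 3.42 (SE 0.89, limma adjusted p = 0.022). These WT arrays carry ovary markers, whose part in this difference was not tested. All 11 arrays of the first batch lay between 2.02 and 3.30.

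The lowest 2 HBx,src,p53 OF arrays for sult2st3 were those of low vtg2, at 4.26 and 3.75, against 5.12 to 6.5 on the others. Without them the OF difference was -2.20 (adjusted p = 0.16), so the call was lost. It was also lost without either of these alone and without HBx,src,p53 10 Gy replicate 1 or 2 (-3.44 to -2.54 over 8 fits, adjusted p up to 0.11). The genotype call turned on the WT 10 Gy arrays, and was lost without WT 10 Gy replicate 1 or HBx,src,p53 10 Gy replicate 1 or 2 (1.48 to 5.36 over 5 fits, adjusted p up to 0.52).

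sult1st1 and sult3st1 differed between genotypes after 40 Gy in opposite directions. sult1st1, of the SULT1 genes that act on phenols, had 4.06, 4.79 and 3.45 in HBx,src 40 Gy against 5.88 and 8.97 in WT 40 Gy livers, a difference of -3.32 (SE 0.70, limma adjusted p = 0.021). With OF it had 4.87, 5.52, 5.94 and 6.49 in HBx,src against 4.40 and 5.80 in WT livers, which overlap. OF minus no OF was thus 1.60 in HBx,src and -2.33 in WT fish, neither past the threshold, and the difference between these effects (3.93) was not past it either. The call rested on WT 40 Gy replicate 2, at 8.97, and was lost without it or without HBx,src 40 Gy replicate 1 (-4.86 to -1.78 over 5 fits, adjusted p up to 0.19) or with array weights.

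sult3st1 had 8.39, 8.10 and 5.98 in HBx,src 40 Gy against 2.90 and 5.26 in WT 40 Gy livers, a difference of 3.41 (SE 0.77, limma adjusted p = 0.030). With OF it had 8.42, 7.76, 6.98 and 8.47 in HBx,src against 4.21 and 6.72 in WT livers, a difference of 2.44 that did not pass the threshold. Neither pair overlapped. In the second batch all 12 arrays lay between 7.63 and 9.75. The call was lost without WT 40 Gy replicate 1 or HBx,src 40 Gy replicate 1 or 2 (2.23 to 4.59 over 5 fits, adjusted p up to 0.25) or with array weights. All 4 WT arrays of this batch had low vtg2, and its part in the differences of sult1st1 and sult3st1 was not tested.

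**Figure D5:**
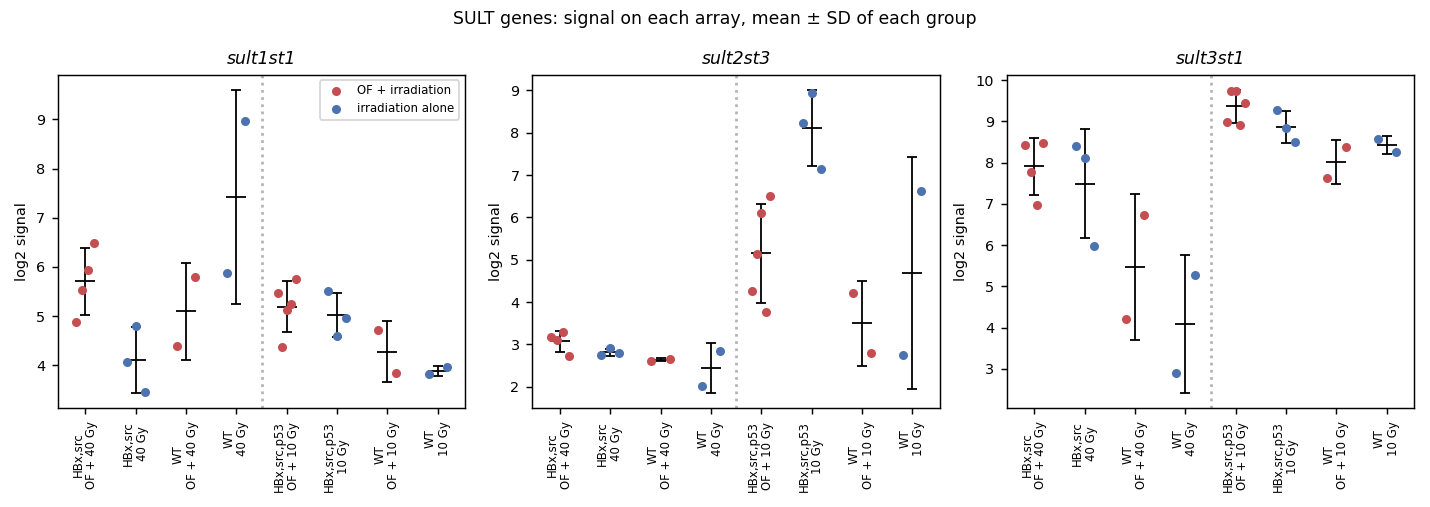
log2 signal of sult1st1, sult2st3 and sult3st1 on each array (points) with the mean and SD of each group (black), with the 40 Gy batch left of the dotted line and OF groups in red. sult2st3 is high in HBx,src,p53 10 Gy livers (7.16 to 8.95) and low on all arrays of the 40 Gy batch (2.02 to 3.30).

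The brightest genes of the family besides sult3st1, sult1st3 and sult1st4, passed no test. sult1st3 had 8.97, 7.65, 7.97, 9.36 and 9.03 in HBx,src,p53 OF + 10 Gy against 8.23, 7.68 and 7.26 in HBx,src,p53 10 Gy livers, and 8.71 and 8.42 in WT OF + 10 Gy against 7.56 and 6.81 in WT 10 Gy livers. sult1st4 had 8.44, 7.61, 7.89, 9.01 and 8.19 in HBx,src,p53 OF + 10 Gy against 6.33, 7.19 and 7.70 in HBx,src,p53 10 Gy livers. On the arrays of low vtg2 sult1st4 had 8.44 and 9.01, against 7.61 to 8.19 on the other 3. The lowest difference of an uncalled SULT gene was that of sult6b1 in HBx,src relative to WT fish after OF + 40 Gy, at -2.80. Family medians of transgenic minus WT lay between 0.03 and 0.19 in the 4 comparisons, and 3 of the 4 fell below 0 in some fits without 1 array, namely without WT 40 Gy replicate 1, WT 10 Gy replicate 2, WT OF + 10 Gy replicate 1 or HBx,src,p53 OF + 10 Gy replicate 1 or 4 (-0.12 to -0.003).

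Genes that make, move or turn over the cofactors and products of these reactions gave few calls. Of 7 measured genes of UDP-glucuronic acid supply and glucuronide cleavage, 1 was called in 1 comparison. It was lower in HBx,src,p53 than in WT fish after 10 Gy, where 8.44% of all genes were lower. slc35d1a, a transporter of UDP-sugars into the endoplasmic reticulum, averaged 3.32 in HBx,src,p53 10 Gy and 5.55 in WT 10 Gy livers, a difference of -2.24 (SE 0.43, limma adjusted p = 0.0020), which held without any 1 of the 5 arrays. Both WT 10 Gy arrays carried the ovary signal, so leaving out 1 array does not remove it. Its part in this difference was not tested. Of 11 genes of glutathione synthesis and turnover, 3 rose with OF in WT fish at 40 Gy, where 4.07% of all genes rose. gclc, the catalytic subunit of the rate-limiting ligase, averaged 4.97 in WT OF + 40 Gy and 3.48 in WT 40 Gy livers (1.49, SE 0.24, limma adjusted p = 0.0035). Glutathione reductase gsr (1.49) and the gamma-glutamyltransferase gene ggt1b (1.82) rose as well. Over the fits without 1 array the call of gclc held, that of gsr was lost without WT OF + 40 Gy replicate 2 (1.25 to 1.74) and that of ggt1b without WT 40 Gy replicate 1 or WT OF + 40 Gy replicate 2 (1.29 to 2.35). After OF + 40 Gy 3 of the 11 were lower in HBx,src than in WT fish, against 1.11% of all genes. They were ggt1a (-3.10), ggt1b (-2.08) and the glutathione synthetase gene gss (-2.37, or -1.53 with the call lost without WT OF + 40 Gy replicate 2), which falls outside the rule for named genes. The call of ggt1a was lost without WT OF + 40 Gy replicate 1 (-1.94 at the smallest), and that of ggt1b without WT OF + 40 Gy replicate 2 (-1.56 at the smallest). Of 10 genes of PAPS synthesis, PAPS transport and sulfate turnover, 1 fell with OF in HBx,src,p53 fish, where 3.29% of all genes fell. After 10 Gy 1 was higher in HBx,src,p53 than in WT fish, against 5.35% of all genes. Both calls were of slc35b3, a Golgi transporter of PAPS. It averaged 5.97 in HBx,src,p53 OF + 10 Gy and 7.17 in HBx,src,p53 10 Gy livers (-1.2, SE 0.17, limma adjusted p = 0.00090). It was higher by 1.42 in HBx,src,p53 than in WT livers after 10 Gy, and both calls held without any 1 array. The part of the ovary signal of the WT 10 Gy arrays in the genotype difference was not tested. Among the groups of the 10 Gy batch, sult2st3 also had its highest mean in HBx,src,p53 10 Gy livers. Its lowest mean was in WT OF + 10 Gy livers, whereas that of slc35b3 was in WT 10 Gy livers. Whether the patterns of these genes are alike was not tested.

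Of 11 measured export pumps, 1 rose with OF in HBx,src and 2 in HBx,src,p53 fish, where 2.11% and 2.51% of all genes rose. In WT fish at 10 Gy 1 fell, against 6.56%. After irradiation alone 1 was lower in HBx,src than in WT fish, against 1.4%, and 2 in HBx,src,p53, against 8.44%. abcg2a changed in 4 comparisons. ABCG2 exports sulfate and glucuronide conjugates in mammals. abcg2a averaged 8.88 in HBx,src OF + 40 Gy and 7.14 in HBx,src 40 Gy livers (1.74, SE 0.31, limma adjusted p = 0.0096), and 9.78 in HBx,src,p53 OF + 10 Gy and 8.12 in HBx,src,p53 10 Gy livers (1.66, SE 0.30, limma adjusted p = 0.0055). In WT fish the OF differences were 0.53 at 40 Gy and -0.14 at 10 Gy. After irradiation alone it was lower in transgenic than in WT livers, by differences of -2.29 at 40 Gy and -2.40 at 10 Gy. vtg2 separates these groups at 40 Gy and ovary markers separate them at 10 Gy, and the part of either was not tested. Leaving out 1 array ended 1 of these 4 calls, the OF effect in HBx,src without HBx,src 40 Gy replicate 3 (adjusted p = 0.051). abcb5 was lower in WT OF + 10 Gy (-2.29) and in HBx,src,p53 10 Gy livers (-2.39) than in WT 10 Gy livers, the arrays with ovary markers. abcb4, a canalicular phospholipid or drug pump, rose by 1.06 in HBx,src,p53 fish with OF, and 6 of the 8 arrays each ended that call when left out, all but HBx,src,p53 OF + 10 Gy replicates 1 and 4 (0.88 to 1.23).

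Of 19 receptors and regulators of these enzymes, 1, 2, 4 and 1 rose with OF in HBx,src at 40 Gy, WT at 40 Gy, HBx,src,p53 at 10 Gy and WT at 10 Gy, where 2.11%, 4.07%, 2.51% and 2.63% of all genes rose. hnf4a, a liver transcription factor that the study followed on these samples and no independent choice, rose by 1.24 in HBx,src and by 1.39 in WT fish at 40 Gy and by 1.2 in HBx,src,p53 fish, with 1.04 in WT fish at 10 Gy. nr1i2, the pregnane X receptor that drives UGT and GST genes in mammals, rose by 1.64 in HBx,src,p53 fish (SE 0.36, limma adjusted p = 0.018) and differed by 1.42, 0.38 and 0.55 in HBx,src, WT at 40 Gy and WT at 10 Gy. pparab, a fatty acid receptor, rose by 2.59 in WT and 1.85 in HBx,src,p53 fish at 10 Gy and was lower by a difference of -1.57 in WT fish at 40 Gy, not past the threshold. It was higher by 2.12 in HBx,src than in WT fish after OF + 40 Gy. The fourth gene that rose in HBx,src,p53 fish, pparaa, lies outside the rule for named genes (1.45, limma adjusted p = 0.041). Its call held without HBx,src,p53 10 Gy replicate 2 or HBx,src,p53 OF + 10 Gy replicate 5 and was lost without any other 1 of the 8 arrays (1.16 to 1.86) and without both arrays of low vtg2 (1.51). keap1b, which holds back the Nrf2 factor, rose by 1.11 in WT fish at 40 Gy. Without the 2 arrays of low vtg2 the calls of hnf4a (0.99), nr1i2 (1.46) and pparab (1.60) in HBx,src,p53 fish were lost. They were also lost without HBx,src,p53 10 Gy replicate 1, at 1.03, 1.32 and 1.52, and that of nr1i2 without replicate 3 of that group (1.75). At 40 Gy the call of hnf4a was lost in HBx,src fish without HBx,src 40 Gy replicate 2 or HBx,src OF + 40 Gy replicate 1 (1.01 and 1.12). In WT fish it was lost without WT 40 Gy replicate 1 or WT OF + 40 Gy replicate 1 or 2 (1.0 to 1.47), and that of keap1b without WT 40 Gy replicate 2 or WT OF + 40 Gy replicate 1 or 2 (0.84 to 1.27). The genotype call of pparab was lost without WT OF + 40 Gy replicate 1 or 2 or HBx,src OF + 40 Gy replicate 1 or 3 (1.88 to 2.35).

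In all, 19 pairs of a gene of the 3 families and a comparison, or a difference between OF effects, passed the test. All of them kept their direction in every alternative that was run. A fit to the groups compared alone, with fewer arrays than the 23, kept 2 of the 19 calls, those of gsta.2 and mgst1.2 between genotypes after 10 Gy. Averaging the probe sets of each gene in place of taking the brightest kept 16.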

How the data were processed

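The deposited values were log2 signals, 1 per probe set and array, that the authors made with Transcriptome Analysis Console from 23 ZebGene gene arrays. No version, algorithm or annotation build of that program is named in the sources used here, and an array holds no read depth, so the number of arrays limits the precision. Values were used as deposited. limma 3.58.1 in R 4.3.3 was fitted over all 75212 probe sets with 8 group means and 15 residual degrees of freedom, with empirical Bayes and Benjamini-Hochberg adjustment, and checked on simulated data. The alternatives, 12 in kind, covered centring, quantile normalization over all arrays and within a batch, an array-median floor, dropping the dimmest 25% of probe sets, a trended prior, array weights, averaging the probe sets of a gene, a fit to the compared groups alone, the replicate number as a block, the thresholds of the methods and leaving out each array. Leaving out both arrays of low vitellogenin was added after the data were seen.

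Named genes were those called in any comparison plus the brightest 3 of each family. Of the 61 genes, 60 matched RefSeq names, which were used for names and neighbours. The members and lists were chosen with earlier results of these data known. No genome was used, so no coordinates are given, and 20 family symbols found on shared probe sets only were not members.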

Additional observations from a re-analysis of the deposited data

Results flagged for a closer look

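The effect of OF on gsto2 differed between the genotypes at 10 Gy, by 1.43 on the log2 scale (SE 0.34, limma adjusted p = 0.023), with a difference of -0.06 in HBx,src,p53 and -1.49 in WT fish. The WT groups compared also differed in vtg2 and ovary markers, and the part of either was not tested. An array far apart from the rest of its group was looked for in 40 cases and found in none. These were the 20 named genes in HBx,src OF + 40 Gy and HBx,src,p53 OF + 10 Gy livers. Groups of 2 or 3 arrays, among them every WT group, were too small for this check. The check looks for 1 array apart, so 2 that lie apart together, such as those of low vtg2, can be missed.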

How the results depend on the processing

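The 310 values of called genes under the alternatives kept their direction, and 111 of them lost the call. The family medians moved by less than the spread between arrays in all 360 cases, but that spread is wide, and 12 of the 24 medians changed sign in at least 1 alternative. After OF the UGT medians ranged over 0.37 to 0.69 (HBx,src), 0.01 to 0.80 (WT, 40 Gy), 0.52 to 1.08 (HBx,src,p53) and 0.78 to 1.13 (WT, 10 Gy). The GST medians ranged over -0.28 to 0.03, -0.33 to 0.69, 0.14 to 0.29 and 0.31 to 0.53 in that order, and the SULT medians over 0.08 to 0.31, 0.10 to 0.52, -0.001 to 0.25 and -0.27 to 0.06. Of the transgenic minus WT medians, 8 changed sign. Counts of the 61 genes called moved as follows.

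OF in HBx,src at 40 Gy (2 called): 1 with array weights, centring, the mean over probe sets, either quantile normalization or a trended prior, 0 in the fit to the compared groups alone and with the replicate block, 8 with the thresholds of the methods and 0 to 1 without 1 array. OF in WT at 40 Gy (1 called): 10 with the floor, 2 with the mean over probe sets, 0 with array weights, the fit alone or the replicate block, 5 with the methods' thresholds and 0 to 4 without 1 array. OF in HBx,src,p53 at 10 Gy (4 called): 0 in the fit alone, 1 with the replicate block, 2 without both arrays of low vitellogenin, 16 with the methods' thresholds and 2 to 5 without 1 array. OF in WT at 10 Gy (3 called): 13 with the methods' thresholds and 1 to 2 without 1 array. HBx,src minus WT after 40 Gy (4 called): 1 with array weights, 0 in the fit alone and with the replicate block, 7 with quantile normalization over all arrays, 17 with the methods' thresholds and 1 to 6 without 1 array. After OF + 40 Gy (1 called): 0 with the floor, centring, the fit alone, the mean over probe sets, quantile normalization within a batch, the replicate block or a trended prior, 2 with quantile normalization over all arrays, 8 with the methods' thresholds and 0 to 3 without 1 array. HBx,src,p53 minus WT after 10 Gy (3 called): 1 with quantile normalization over all arrays, 0 with the replicate block, 9 with the methods' thresholds and 0 to 2 without 1 array. After OF + 10 Gy (0 called, 9 at an unadjusted p under 0.05): 6 with the methods' thresholds, 3 without both arrays of low vitellogenin and 0 to 1 without 1 array. Differences between OF effects at 40 Gy (0 called, 6 at an unadjusted p under 0.05): 1 with the floor or quantile normalization over all arrays, 5 with the methods' thresholds and 0 to 1 without 1 array. At 10 Gy (1 called): 2 in the fit alone, 0 with quantile normalization over all arrays or the replicate block, 5 with the methods' thresholds and 0 to 1 without 1 array. The cause of these moves was not tested.

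Same-numbered arrays of compared groups correlated by -0.0997 to 0.155 in their deviations from the group means, so the numbers are not taken as pairs, and the replicate block kept 4 of the 19 calls.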

Other observations

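The 13 probe sets shared by several UGT genes were not used to represent the 23 genes, though most carry symbols of some of them. After OF they were higher in 11 cases in HBx,src and 11 in WT fish at 40 Gy. At 10 Gy they were higher in 11 cases in HBx,src,p53 and 13 in WT fish. Of these, 2 passed the test in HBx,src,p53 and 5 in WT fish at 10 Gy, where 2.51% and 2.63% of all genes rose. Their median differences were 0.39, 0.67, 1.75 and 1.52 in that order of comparisons. A probe set shared by ugt2a1, ugt2a2, ugt2a3 and ugt2a4 was higher in HBx,src,p53 than in WT fish after 10 Gy (1.64, limma adjusted p = 0.00031), where 5.35% of all genes were higher. The OF effect on it was lower in HBx,src,p53 than in WT fish at 10 Gy (-1.41, limma adjusted p = 0.028), where 6.8% of all genes differed. The other probe set of these genes had 1.15 and -1.03, neither past the threshold. Several of these probe sets detect the same gene copies or hold identical values, so they are not independent. They are not independent of the 23 genes either, and both that passed in HBx,src,p53 fish carry ugt5b3.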
